A study of Homo sapiens with 6 samples.

Results

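The receptors TGFBR1 and TGFBR2, the signal-carrying SMAD2, SMAD3 and SMAD4, the inhibitory SMAD6 and SMAD7, the nuclear repressor SKIL and the decoy receptor BAMBI are the core of TGF-beta signalling described here. Their members were taken as every array probe set whose platform annotation named 1 of these 9 genes and no other gene, without regard to its level or change. This gave 34 of 49293 probe sets, and the 9 genes are among 18132 that the array measured. The 9 genes themselves were chosen with earlier results of these data known. The samples were U87 cells, a human glioblastoma cell line in long use, whose messenger RNA was read on 1-colour Affymetrix arrays. In 3 samples the microRNA miR-151a was overexpressed, and in 3 samples the control microRNA miR-NC. No drug treatment is named for either group. The sources used here do not give how the microRNAs were expressed, which arm of miR-151a was used, the time or the number of clones. They also do not say that the samples of a group came from separate cultures, so the p-values cover the spread among these 6 samples alone, and that spread may be technical.

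TGF-beta and related ligands bring type I and type II receptor kinases together at the cell surface. TGFBR2 activates TGFBR1, which phosphorylates SMAD2 and SMAD3. These join SMAD4, enter the nucleus and switch genes on or off. SMAD6 and SMAD7 are inhibitory SMADs that are induced by the signal and hold it back, SKIL (SnoN) binds the SMAD complex on DNA and represses it, and BAMBI is a receptor-like membrane protein without a kinase domain that blocks type I receptors. In glioblastoma the pathway is known for its part in invasion, in the mesenchymal state and in immune suppression.

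The 6 arrays had nearly the same distribution, with medians of 57.1 to 58.6 intensity units. The correlation of log2 values over all probe sets was 0.998 to 0.9984 within groups and 0.9956 to 0.9958 between them. None of the 34 probe sets was below the lower quartile of any array, and the number of arrays limits the precision. Of the markers listed for U87 cells, VIM was bright, at 19170 ± 297.0 with miR-151a and 19019 ± 484.2 with miR-NC (SD, n = 3 each). The glial and progenitor markers GFAP, OLIG2 and SOX2 lay near or below the array median, while NES lay above it. With miR-151a, GFAP was at 61.42 ± 1.36, OLIG2 at 63.85 ± 3.86 and SOX2 at 47.95 ± 1.99. With miR-NC they were at 63.21 ± 0.592, 57.66 ± 5.43 and 48.13 ± 3.52. PDGFRA, at 15.89 ± 4.789 with miR-151a and 16.98 ± 1.687 with miR-NC, was near the lower quartile of the arrays. It was below the lower quartile over genes, each taken by the mean log2 value of its brightest probe set. Of 10 glioma and mesenchymal markers 0 were called higher and 1 lower. The marker called lower was NES, at 133.9 ± 6.746 with miR-151a and 165.7 ± 4.564 with miR-NC (log2 fold change -0.31, adjusted p 0.0079 in limma). The summed level of 7 immune markers was 1173.9 to 1268.6 with miR-151a and 1152.0 to 1223.1 with miR-NC, with 1 called higher. Most of it was CD68, at 1027.8 ± 46.57 with miR-151a and 1003.9 ± 29.87 with miR-NC. CSF1R, at 98.14 ± 4.378 and 114.4 ± 8.796, was also above the array median. Below the same lower quartile over genes were 3 of the 7, among them the defining marker PTPRC. Of 4 endothelial markers and 4 neuronal markers, 0 were called, and their summed levels were 211.0 to 219.2 and 1838.4 to 1857.2 with miR-151a, against 215.2 to 238.2 and 1905.2 to 2014.2 with miR-NC. The log2 ratio of 3′ to 5′ control probe sets averaged 0.29 with miR-151a and 0.40 with miR-NC for beta-actin, 0.05 and 0.04 for GAPDH, and 0.38 and -0.49 for 18S rRNA. The part of these control values in the results below was not tested.

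With miR-151a, 2 inhibitors of TGF-beta signalling rose: BAMBI 2.14-fold on its only probe set, and SKIL 1.23-fold on its brightest one. SMAD3 and the inhibitory SMAD6 fell on their brightest probe sets: SMAD3 fell by 15.8% and SMAD6 fell by 23.8%. The receptors TGFBR1 and TGFBR2, SMAD2, SMAD4 and SMAD7 did not pass on theirs, although 1 other probe set of TGFBR1, 1 of SMAD4 and 4 of SMAD2 did. The changes other than that of BAMBI were small, and for SMAD2, SMAD3, SMAD4, SMAD6 and TGFBR1 the answer depended on the probe set read. In bulk RNA, fewer cells of a kind and less RNA per cell cannot be told apart.

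The call used throughout is a Benjamini-Hochberg adjusted p under 0.05 in limma, over all 49293 probe sets or all 18132 genes, on log2(intensity + 1), where fold changes of dim probe sets are understated. By it 5 of the 34 probe sets rose (14.7%) and 7 fell (20.6%), beside 6.81% and 7.27% of all probe sets. The other 22 did not pass. The median change of the 34 was 0.01, beside -0.01 over all probe sets. The 3 miR-151a values all lay above the 3 miR-NC values for 10 probe sets, beside 15.3% of all, and all lay below them for 11, beside 18.6%. With 1 probe set per gene, the brightest, 2 of 9 genes rose and 2 fell, beside 7.27% and 8.11% of all genes. Probe sets of 1 gene share a transcript and are not independent, so these shares are a description. The counts rested on few samples: 2 to 4 probe sets rose and 1 to 7 fell when 1 sample was left out, with 3 higher without miR-151a sample 3, miR-NC sample 1 or miR-NC sample 2 and 2 higher without miR-NC sample 3. Of the falls, 4 were left without miR-151a sample 1 or 2, 3 without miR-NC sample 1 or 3, and 1 without miR-NC sample 2.

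**Figure D1:**
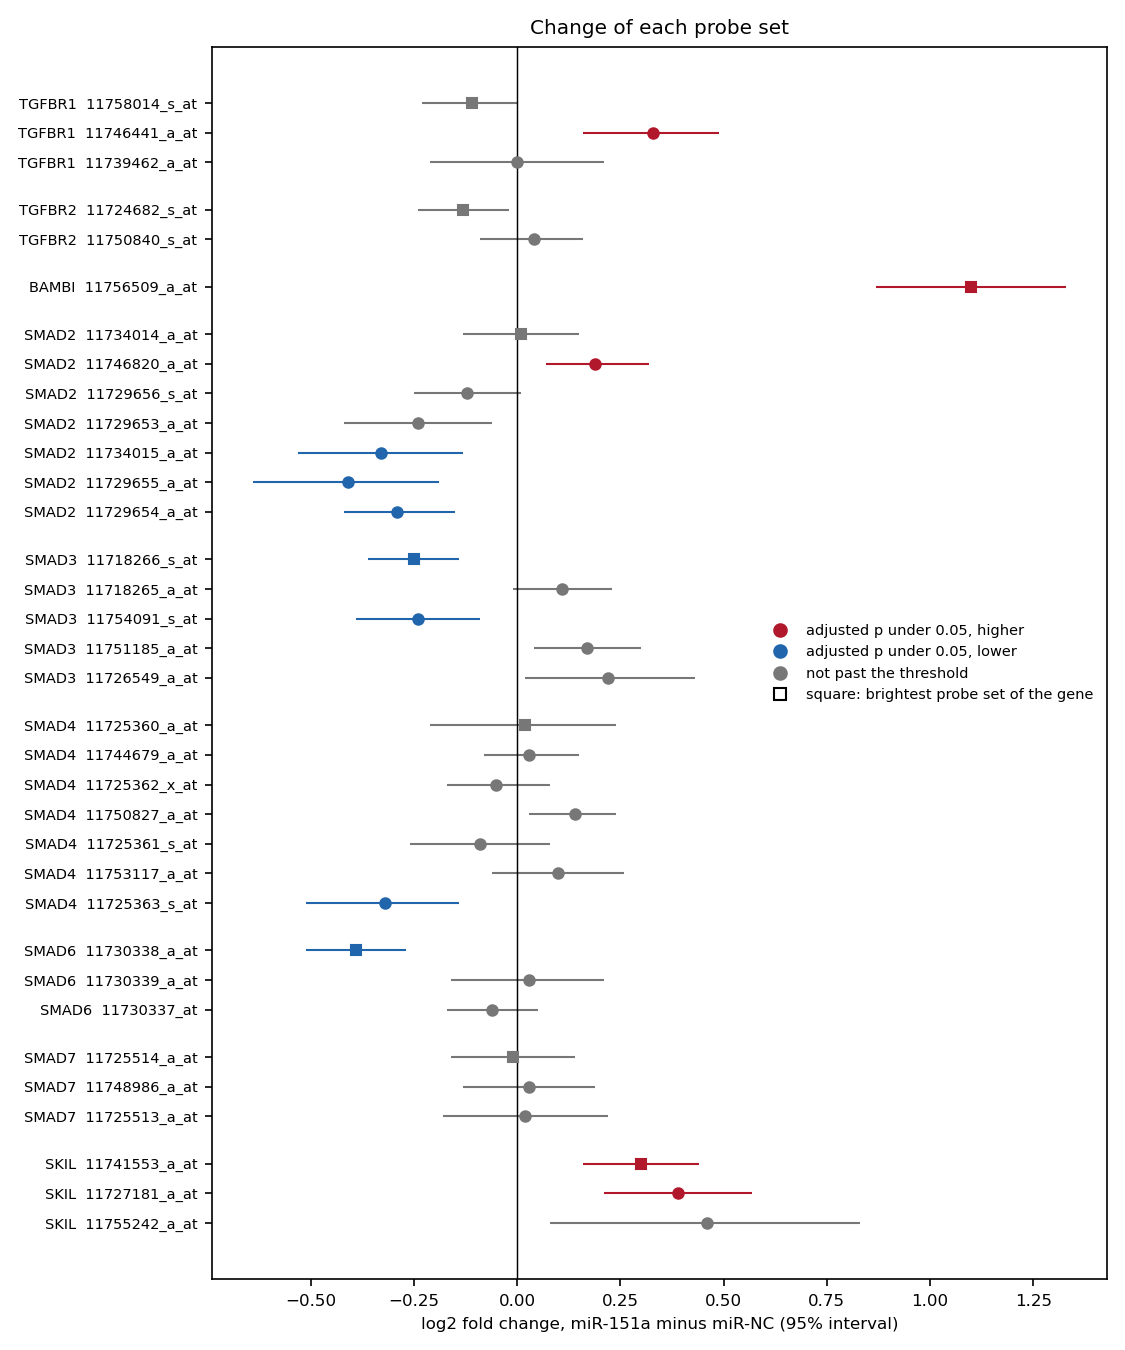
Change of each of the 34 probe sets, miR-151a minus miR-NC, as a log2 fold change with its 95% interval from limma (x axis), grouped by gene (y axis). BAMBI lies at 1.10, SMAD2 has calls on both sides of 0, and squares mark the brightest probe set of each gene.

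BAMBI had the largest change of the 9 genes. Its probe set (11756509_a_at) read 82.1, 94.4 and 91.9 intensity units in the miR-151a samples, against 48.1, 36.7 and 39.6 in the miR-NC samples. Every miR-151a sample was well above every miR-NC sample. The means were 89.5 ± 6.49 and 41.5 ± 5.92 (SD, n = 3 each), a log2 fold change of 1.10 ± 0.10 (SE) with a 95% interval of 0.87 to 1.33 and an adjusted p of 0.00055 in limma. The rise ranked 125 among all probe sets, and a rise of at least 2-fold that passed was seen for 0.321% of them. The call held in each of 13 alternatives, with values from 0.73 under a pseudocount of 32 to 1.21. The 3 genes whose profile over the 6 samples was most like that of BAMBI, by Euclidean distance of mean-centred log2 values, were CLDN14, a tight junction claudin (0.23), PNLIPRP3, a lipase-related gene (0.26), and ICAM1, a leukocyte adhesion receptor (0.27). Their log2 fold changes were 1.09, 1.15 and 1.11.

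SKIL, whose product holds SMAD complexes inactive on DNA, was higher on all of its probe sets. Probe set 11741553_a_at read 97.8, 94.4 and 91.4 with miR-151a and 82.5, 73.1 and 74.6 with miR-NC. Probe set 11727181_a_at read 43.64, 49.20 and 44.97 with miR-151a and 38.47, 33.99 and 31.98 with miR-NC. In both, the groups did not overlap. The log2 fold changes were 0.30 (95% interval 0.16 to 0.44, adjusted p 0.016) and 0.39 (0.21 to 0.57, adjusted p 0.015). The third, 11755242_a_at, had 27.6, 25.3 and 40.2 with miR-151a and 21.7, 19.3 and 24.9 with miR-NC. It did not overlap either, but its spread was wide and it did not pass (0.46, 0.08 to 0.83, adjusted p 0.11). As a gene, SKIL rose by 0.30 (adjusted p 0.014), or by 0.38 as the mean over its probe sets (adjusted p 0.0051). The gene's adjusted p was 0.052 without miR-NC sample 2 and 0.053 without miR-NC sample 3, and probe set 11741553_a_at did not pass without miR-151a sample 1, miR-NC sample 2 or miR-NC sample 3. Probe set 11727181_a_at passed in each of 13 alternatives, with a limma adjusted p of up to 0.049.

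**Figure D2:**
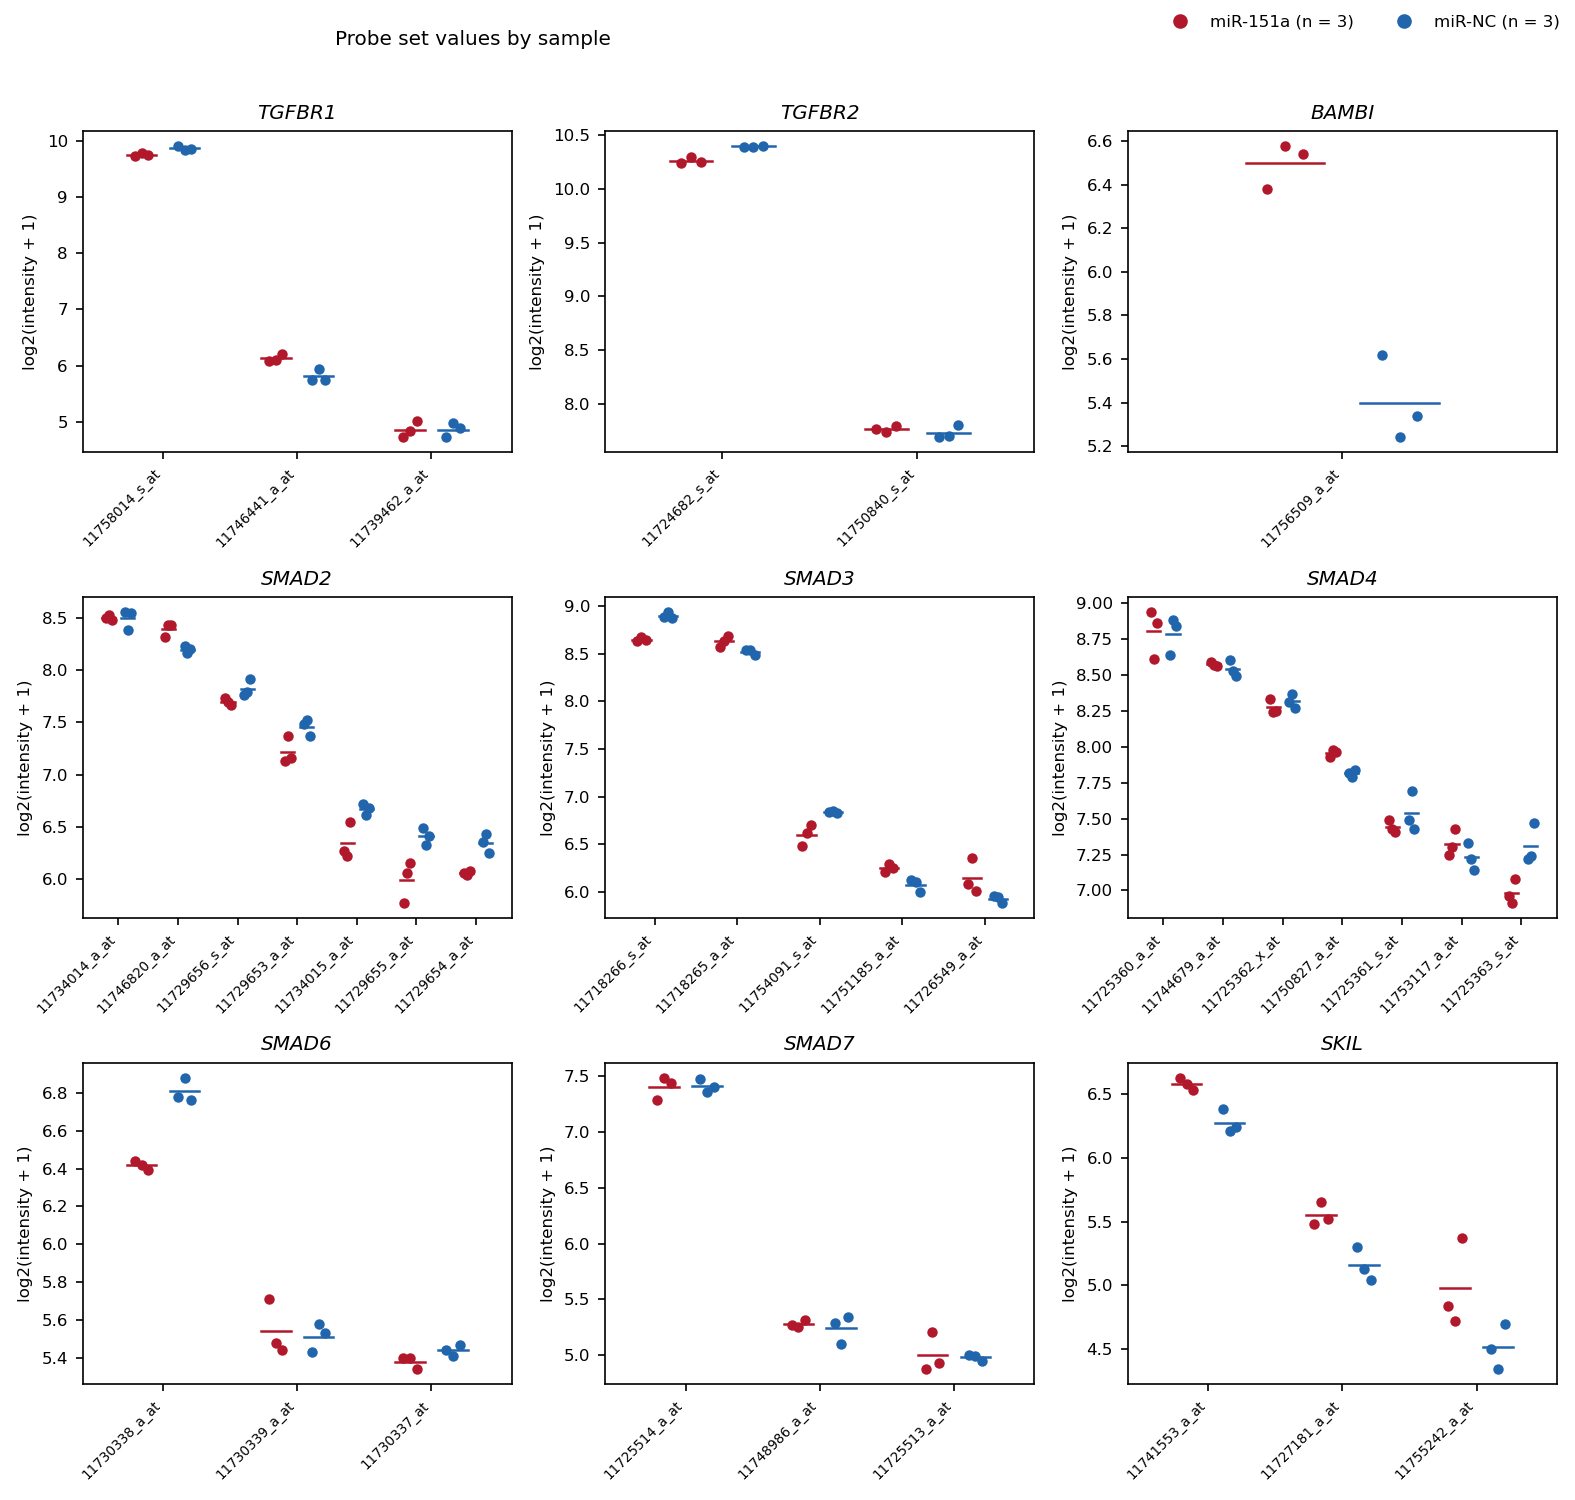
Values of log2(intensity + 1) of every probe set of the 9 genes in each of the 6 samples. In each pair miR-151a is left of miR-NC, with bars at the group means. The BAMBI points are separated most, at 6.38 to 6.58 with miR-151a and 5.24 to 5.62 with miR-NC, while those of SMAD7 overlap.

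SMAD6, the inhibitory SMAD that acts mainly on the BMP branch, had the largest fall among the 9 genes when each is read by its brightest probe set; SMAD2 fell more on 1 of its other probe sets and as a mean over probe sets. Its brightest probe set, 11730338_a_at, read 85.6, 84.4 and 82.9 with miR-151a, against 108.9, 116.7 and 107.5 with miR-NC. The groups were far apart relative to their spread. The means were 84.3 ± 1.32 and 111.0 ± 4.93 (SD, n = 3 each), a log2 fold change of -0.39 (95% interval -0.51 to -0.27, adjusted p 0.0028), and the call held in each of 13 alternatives. The other SMAD6 probe sets did not pass. Probe set 11730339_a_at read 51.4, 43.7 and 42.5 with miR-151a and 42.2, 46.9 and 45.3 with miR-NC (0.03, adjusted p 0.86), and its groups overlapped. Probe set 11730337_at read 41.3, 41.2 and 39.4 with miR-151a and 42.4, 41.6 and 43.2 with miR-NC (-0.06, adjusted p 0.48), with all miR-151a values below. Averaged over its 3 probe sets, SMAD6 did not pass (-0.14, adjusted p 0.074). The genes nearest to it in profile were LAMP2, a lysosomal membrane protein, MCUB, a subunit of the mitochondrial calcium channel, and SCD, a fatty acid desaturase, each at a distance of 0.06 over the 6 samples and with log2 fold changes of -0.39, -0.36 and -0.39.

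SMAD7, the inhibitory SMAD that blocks TGFBR1 and brings ubiquitin ligases to it, passed on none of its 3 probe sets. The brightest, 11725514_a_at, read 155.7, 178.2 and 172.3 with miR-151a and 177.5, 163.8 and 169.1 with miR-NC. The groups overlapped, with a log2 fold change of -0.01 and an interval of -0.16 to 0.14 (adjusted p 0.92). The other probe sets gave 0.03 (-0.13 to 0.19) and 0.02 (-0.18 to 0.22). Their groups overlapped too.

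SMAD3, which TGFBR1 phosphorylates and which binds DNA directly, had probe sets on both sides of 0. The brightest, 11718266_s_at, read 396.0, 407.5 and 398.5 with miR-151a, against 471.7, 490.5 and 465.9 with miR-NC. All miR-151a samples were lower, and the log2 fold change was -0.25 (95% interval -0.36 to -0.14, adjusted p 0.013). Probe set 11754091_s_at read 88.0, 97.1 and 102.9 with miR-151a and 113.3, 114.3 and 112.5 with miR-NC. It fell by a like amount (-0.24, -0.39 to -0.09, adjusted p 0.043). The other 3 probe sets read higher in every miR-151a sample without passing. Probe set 11718265_a_at read 379.4, 394.3 and 409.7 with miR-151a and 370.3, 370.7 and 355.1 with miR-NC (0.11, adjusted p 0.22). The same fit gave 0.17 for 11751185_a_at (adjusted p 0.081) and 0.22 for 11726549_a_at (adjusted p 0.15). The mean over the 5 probe sets was 0.00 (adjusted p 0.98), so the call for SMAD3 as a gene rests on which probe set stands for it. Without miR-NC sample 2 no SMAD3 probe set passed, and 1 passed without miR-151a sample 1 or 2 or miR-NC sample 1 or 3.

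SMAD2, the partner of SMAD3 downstream of TGFBR1, was the only one of the 9 genes with calls in both directions. Such a gene was rare in the series, with 30 of 2040 genes that have 5 or more probe sets (1.47%). Its brightest probe set, 11734014_a_at, read 361.4, 369.9 and 355.4 with miR-151a and 375.3, 331.7 and 372.5 with miR-NC. The groups overlapped and the log2 fold change was 0.01 (95% interval -0.13 to 0.15, adjusted p 0.93). Probe set 11746820_a_at read 317.5, 343.5 and 343.9 with miR-151a and 298.7, 285.7 and 293.2 with miR-NC. It was higher in every miR-151a sample, by 0.19 (0.07 to 0.32, adjusted p 0.049), close to the threshold, and it did not pass after median centring or in 5 of the 6 fits that left out a sample.

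Of the other SMAD2 probe sets, 3 fell. Probe set 11729654_a_at read 65.8, 64.8 and 66.7 with miR-151a, against 81.1, 85.1 and 75.2 with miR-NC (-0.29, 95% interval -0.42 to -0.15, adjusted p 0.016). Probe set 11729655_a_at read 53.6, 65.7 and 70.6 with miR-151a and 89.2, 79.5 and 83.8 with miR-NC (-0.41, -0.64 to -0.19, adjusted p 0.029). Probe set 11734015_a_at read 76.3, 73.6 and 92.6 with miR-151a and 104.6, 97.6 and 101.3 with miR-NC (-0.33, -0.53 to -0.13, adjusted p 0.042). In each of them all miR-151a samples were below all miR-NC samples. The remaining probe sets, 11729653_a_at and 11729656_s_at, gave -0.24 (adjusted p 0.077) and -0.12 (adjusted p 0.22). Averaged over its 7 probe sets, SMAD2 fell by 0.17 on the log2 scale (adjusted p 0.032), where its brightest probe set showed 0.01. Of these 3 falls, 0 passed without miR-NC sample 1 or 2, and 1 without miR-151a sample 2 or miR-NC sample 3.

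SMAD4, the common partner of both SMAD branches, had 1 call among 7 probe sets. Probe set 11725363_s_at read 123.5, 119.1 and 134.4 with miR-151a, against 147.6, 150.2 and 175.7 with miR-NC. The groups did not overlap, and the log2 fold change was -0.32 (95% interval -0.51 to -0.14, adjusted p 0.033). This call was lost without miR-151a sample 1 or 2 and without miR-NC sample 2 or 3. The brightest, 11725360_a_at, read 491.6, 390.3 and 464.6 with miR-151a and 399.0, 471.1 and 456.7 with miR-NC (0.02, -0.21 to 0.24, adjusted p 0.93). Its groups overlapped and its spread was the widest of the 7. The other 5 ranged from -0.09 for 11725361_s_at (adjusted p 0.48) to 0.14 for 11750827_a_at (adjusted p 0.10). The last of these was higher in every miR-151a sample, at 242.3, 250.9 and 247.4, against 225.4, 220.5 and 228.1 with miR-NC.

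TGFBR2, the receptor that binds TGF-beta ligand first, read 1209.6, 1253.1 and 1212.6 with miR-151a and 1339.7, 1339.8 and 1346.3 with miR-NC on its brightest probe set, 11724682_s_at. All miR-151a samples were lower, but the change was small and did not pass (-0.13, 95% interval -0.24 to -0.02, adjusted p 0.10). Its other probe set, 11750840_s_at, read 217.6, 213.0 and 221.8 with miR-151a and 205.2, 206.9 and 223.7 with miR-NC, and the groups overlapped (0.04, adjusted p 0.71). TGFBR1, the type I kinase, read 852.8, 883.6 and 861.1 with miR-151a and 965.0, 915.0 and 930.4 with miR-NC on 11758014_s_at. Again all miR-151a samples were lower without passing (-0.11, adjusted p 0.17). The TGFBR1 probe set 11746441_a_at went the other way, with 66.6, 67.8 and 73.3 with miR-151a and 52.4, 60.4 and 52.6 with miR-NC. It rose by 0.33 (0.16 to 0.49, adjusted p 0.021), a call that was lost without miR-151a sample 3, miR-NC sample 1 or miR-NC sample 3. The third, 11739462_a_at, overlapped (0.00, -0.21 to 0.21, adjusted p 0.99).

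Whether probe sets of 1 gene differed in their response was tested directly, on the log2 difference between a probe set and the brightest probe set of the same gene within each sample. Over all genes 26856 such pairs were fitted with limma, and 1.78% shifted between the groups. Of the 25 pairs of the 8 genes with several probe sets, 3 shifted upward, beside 0.7% of all pairs, and 0 downward, beside 1.08%. An unadjusted p under 0.05 in limma was seen for 13 of the 25, and for 4610 of all 26856. Pairs of 1 gene share its brightest probe set and are not independent, so these shares are a description. For SMAD3, probe set 11718265_a_at stood at -0.06, -0.05 and 0.04 relative to 11718266_s_at with miR-151a, against -0.35, -0.40 and -0.39 with miR-NC. That is a shift of 0.36 (95% interval 0.22 to 0.50, adjusted p 0.038), and 11751185_a_at shifted by 0.42 (0.28 to 0.56, adjusted p 0.027). For SMAD6, 11730339_a_at stood at -0.72, -0.93 and -0.95 relative to 11730338_a_at with miR-151a, against -1.35, -1.30 and -1.23 with miR-NC, a shift of 0.42 (0.24 to 0.61, adjusted p 0.049). In all 3 the groups did not overlap.

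Further pairs just missed the threshold. SMAD3 11726549_a_at gave a shift of 0.47 (adjusted p 0.0502), SMAD6 11730337_at 0.33 (adjusted p 0.055) and TGFBR1 11746441_a_at 0.44 (adjusted p 0.058). The opposite calls of SMAD2 did not pass relative to its brightest probe set, with 0.18 for 11746820_a_at (adjusted p 0.23) and -0.42 for 11729655_a_at (adjusted p 0.094). The 2 SMAD3 probe sets that fell moved together, with a shift of 0.01 between them (-0.16 to 0.17, adjusted p 0.98). Those of SKIL (0.09 and 0.16) and SMAD7 (0.05 and 0.04) did not pass either. Nor did that of the SMAD4 probe set 11725363_s_at (-0.34, adjusted p 0.14). Each of the 3 calls was lost on leaving out any 1 of the 6 samples. Which genes disagreed also depended on the partner. Against the mean of the gene's other probe sets, the shifts of SMAD3 11718265_a_at (0.13, adjusted p 0.31), SMAD3 11751185_a_at (0.21, adjusted p 0.12) and SMAD6 11730339_a_at (0.26, adjusted p 0.16) did not pass. Those of SMAD2 11746820_a_at (0.42, adjusted p 0.017) and TGFBR1 11746441_a_at (0.38, adjusted p 0.036) passed instead. Which transcript ends or isoforms the probe sets read was not analysed here.

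**Figure D3:**
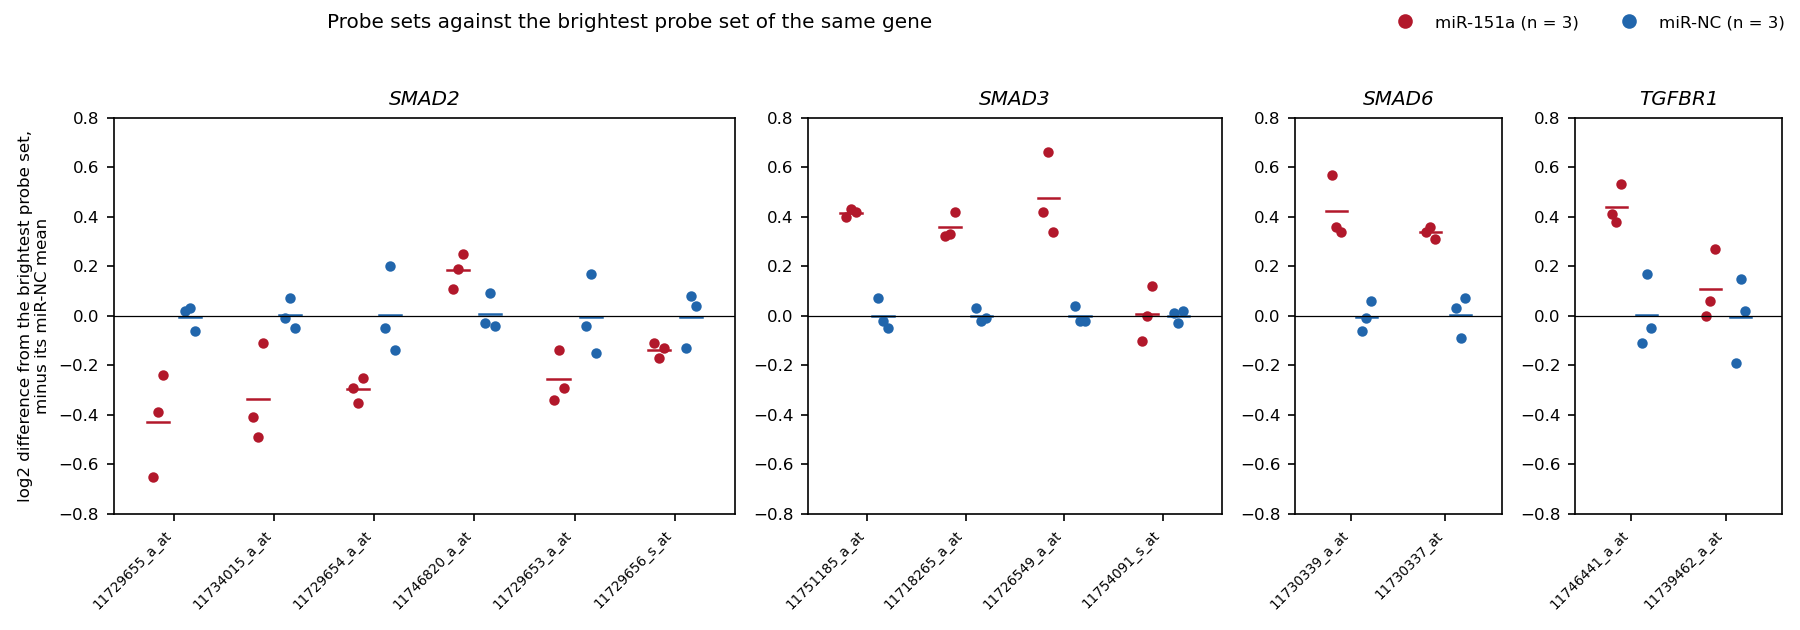
Log2 difference between a probe set and the brightest probe set of the same gene in each sample, minus its mean over the miR-NC samples. SMAD2, SMAD3, SMAD6 and TGFBR1 are shown, with miR-151a left of miR-NC in each pair. For the SMAD3 probe set 11718265_a_at the miR-151a mean lies 0.36 above that of miR-NC. Before the subtraction its values were -0.06 to 0.04 with miR-151a and -0.40 to -0.35 with miR-NC.

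SMAD3 also fell on its brightest probe set, but its 5 promoter windows are not printed. Shown are the promoters of BAMBI and SKIL, which rose, and SMAD6, which fell, on their brightest probe sets. Each printed window is the 250 bases before the annotated start, 5′ to 3′ on the + strand, from RefSeq on GRCh38.p14. They lie at chr10:28677271-28677520 for BAMBI, chr3:170357465-170357714 for SKIL and chr15:66701986-66702235 for SMAD6, and capitals mark a motif match.
BAMBI: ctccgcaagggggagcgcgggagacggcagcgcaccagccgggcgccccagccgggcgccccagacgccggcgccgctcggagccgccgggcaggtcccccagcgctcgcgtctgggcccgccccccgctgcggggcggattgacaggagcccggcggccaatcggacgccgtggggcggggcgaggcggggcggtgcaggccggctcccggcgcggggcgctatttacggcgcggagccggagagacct
SKIL: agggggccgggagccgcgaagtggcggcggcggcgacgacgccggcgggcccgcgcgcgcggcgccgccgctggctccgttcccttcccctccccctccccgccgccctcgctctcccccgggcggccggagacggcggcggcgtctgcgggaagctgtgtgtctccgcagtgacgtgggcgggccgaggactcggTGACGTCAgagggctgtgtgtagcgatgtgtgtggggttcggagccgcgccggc
SMAD6: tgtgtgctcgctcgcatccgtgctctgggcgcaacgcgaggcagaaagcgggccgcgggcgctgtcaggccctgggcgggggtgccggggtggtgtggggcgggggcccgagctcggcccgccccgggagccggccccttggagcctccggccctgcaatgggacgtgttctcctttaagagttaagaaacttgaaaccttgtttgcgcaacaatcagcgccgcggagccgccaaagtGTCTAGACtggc
On both strands 4 motifs were searched, none of which contains another: the SMAD palindrome GTCTAGAC, the SMAD element CAGACA, the cyclic AMP response element TGACGTCA and the AP-1 element TGANTCA. The SMAD6 window holds the SMAD palindrome 12 bases before the start, a motif in 0.178% of 34788 RefSeq windows of this length. The SKIL window holds the cyclic AMP response element 54 bases before the start, a motif in 1.64% of windows. In the BAMBI window none of the 4 was found. CAGAC, a shorter part of CAGACA, was not searched, so its share over all windows is not known. Read on either strand, it occurs in the printed windows of BAMBI and SKIL alike. Among the 24 windows of the 9 genes, CAGACA (13.6% of all windows) was found in 2 of TGFBR1 and 1 of SMAD3, and the AP-1 element (6.59%) in 1 of SMAD3. A match is a string of letters and not a measured binding site.

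The other genes of the pathway were read from 7 lists, each gene by its brightest probe set. Of 110 distinct genes 21 rose (19.1%) and 13 fell (11.8%), beside 7.27% and 8.11% of all genes, and their median change was 0.00, beside -0.01. With 1 sample left out, 14 to 20 rose and 8 to 11 fell, the 8 without miR-NC sample 1. The lists were chosen with earlier results of these data known, so these shares are a description.

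Among 15 ligands of the family, 5 rose and 1 fell, with a median of 0.02. INHBA, the activin A subunit, averaged 150.2 ± 15.97 with miR-151a and 84.92 ± 7.535 with miR-NC (SD, n = 3 each; log2 fold change 0.81, adjusted p 0.0014). INHBE, another inhibin beta subunit, averaged 57.1 ± 2.95 and 30.1 ± 2.95 (0.91, adjusted p 0.00037). GDF15, a stress-induced distant family member, averaged 1864.3 ± 47.7 and 885.5 ± 16.9 (1.07, adjusted p 1e-05). BMP6 was the ligand that fell, with 44.2 ± 2.92 with miR-151a and 54.1 ± 2.85 with miR-NC (-0.29, adjusted p 0.022). TGFB1 gave -0.10 (adjusted p 0.28), TGFB2 -0.05 and TGFB3 -0.04, and none passed. In the fits without miR-151a sample 2 or 3 or any miR-NC sample 3 ligands rose; without miR-151a sample 1 or 3 or miR-NC sample 1 or 3, 0 fell, and without miR-151a sample 2, 2 fell.

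Of 15 measured genes that activate ligands or bind them outside the cell, 3 rose and 2 fell, with a median of 0.05. LTBP1, which stores latent TGF-beta in the matrix, averaged 621.2 ± 34.6 with miR-151a and 865.5 ± 17.3 with miR-NC (-0.48, adjusted p 0.0014), and FSTL1, a secreted follistatin-like protein, fell by 0.35 on the log2 scale (adjusted p 0.0028). LRRC32 (GARP), which holds latent TGF-beta on the cell surface, rose by 0.39 (adjusted p 0.0046), and the proteoglycan DCN by 0.26 (adjusted p 0.022), though the mean over the probe sets of DCN did not pass (0.12, adjusted p 0.18). Without any 1 miR-NC sample, 1 of these genes rose. Of 11 other receptors and co-receptors, 1 rose and 2 fell, with a median of -0.05. The co-receptor TGFBR3 (betaglycan) averaged 80.1 ± 9.63 with miR-151a and 108.6 ± 6.19 with miR-NC (-0.44, adjusted p 0.015; -0.22 as the mean over its probe sets). BMPR2, the BMP type II receptor, gave -0.26 (adjusted p 0.032), and BMPR1B, a BMP type I receptor, 0.31 (adjusted p 0.043; 0.0503 after quantile normalization). Without miR-151a sample 2 or 3 or any miR-NC sample, 0 receptors rose; 1 fell without miR-151a sample 1 or 2 or miR-NC sample 3, and 0 without miR-NC sample 1 or 2.

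Of the 3 other SMADs, SMAD1, a carrier of the BMP signal, averaged 374.3 ± 18.7 with miR-151a and 299.1 ± 13.8 with miR-NC and rose by 0.32 (adjusted p 0.0093). SMAD5 lay at the threshold, with -0.17 (adjusted p 0.051), and passed as a fall without miR-151a sample 1 and in 5 of the 8 alternatives that kept all samples, while SMAD9 gave -0.07 (adjusted p 0.65). Of 27 cofactors and regulators, 3 rose and 3 fell, with a median of 0.02. SKI, the paralog of SKIL, averaged 228.8 ± 8.47 with miR-151a and 287.7 ± 13.1 with miR-NC and fell (-0.33, adjusted p 0.0062), opposite to SKIL. FKBP1A, an immunophilin that binds type I receptors, fell by 0.33 on the log2 scale (adjusted p 0.0040). The ubiquitin ligases NEDD4L and RNF111 (Arkadia, which targets SKIL, SKI and SMAD7 for degradation) rose by 0.39 (adjusted p 0.0032) and 0.29 (adjusted p 0.010). As means over probe sets NEDD4L rose by 0.24 (adjusted p 0.0088) and RNF111 did not pass (0.12, adjusted p 0.067).

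Target genes moved in both directions. Of 29 measured TGF-beta and SMAD3 targets 5 rose and 4 fell, with a median of -0.05. KLF10, an early TGF-beta response gene, averaged 2437.9 ± 94.7 with miR-151a and 1260.4 ± 62.9 with miR-NC (0.95, adjusted p 5.2e-05), and CDKN1A, a cyclin-dependent kinase inhibitor, rose by 0.34 (adjusted p 0.0018). The collagen genes COL1A2 and COL1A1 fell by 0.39 (adjusted p 0.0019) and 0.45 (adjusted p 0.0028) on the log2 scale, and COL1A1 fell by 0.23 as the mean over its probe sets. Of 14 BMP targets 3 rose and 1 fell, with a median of 0.03. The homeobox gene DLX2 averaged 153.6 ± 10.9 with miR-151a and 99.2 ± 2.45 with miR-NC (0.62, adjusted p 0.00072; 0.22 as the mean over its 3 probe sets, of which 1 passed), and the transcription factors HEY1 and GATA3 rose by 0.61 (adjusted p 0.0023) and 0.34 (adjusted p 0.0060). ID1, a standard readout of BMP signalling, was the fall, at -0.16 (adjusted p 0.0497), and it did not pass without any 1 of the 6 samples or as the mean over its probe sets (-0.10, adjusted p 0.13).

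**Figure D4:**
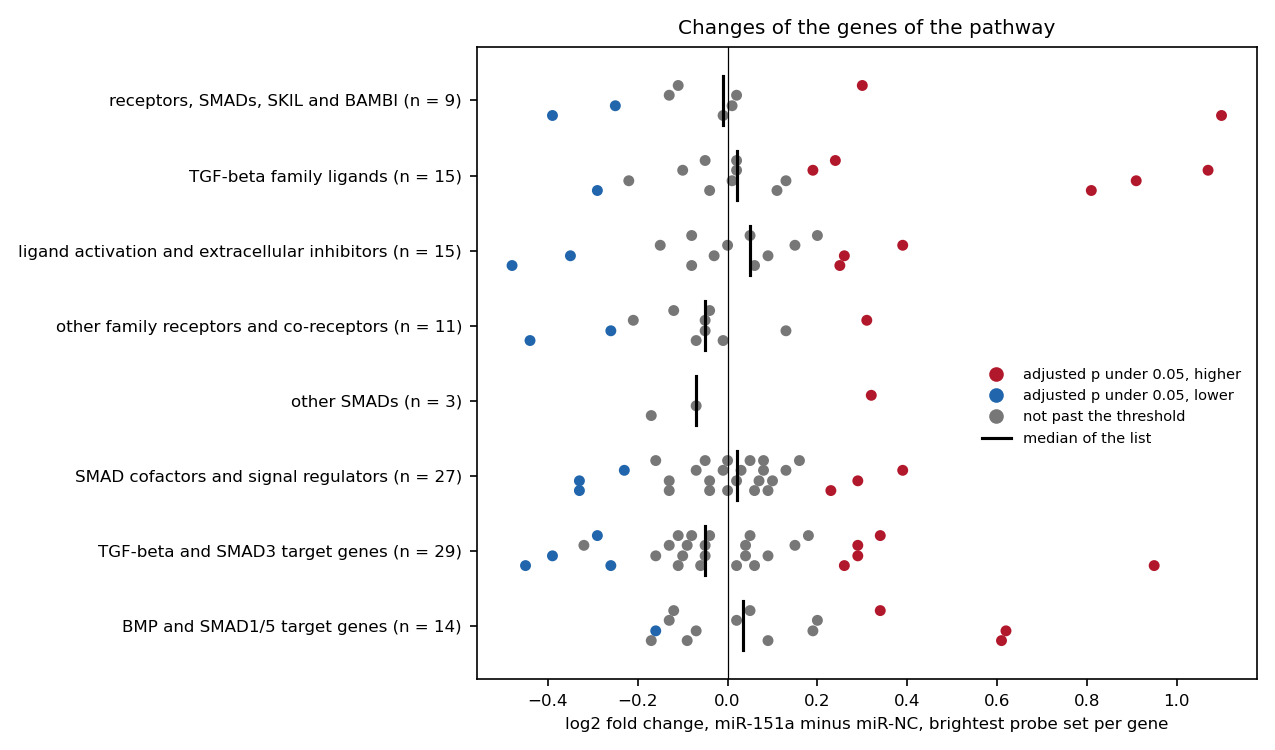
Log2 fold change, miR-151a minus miR-NC, of each gene by its brightest probe set (x axis), for the 9 core genes and the 7 lists of other pathway genes (y axis), with a black line at each list's median. Medians lie between -0.07 and 0.05, and the points beyond 0.8 are BAMBI, INHBA, INHBE, GDF15 and KLF10.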

How the data were processed

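The deposited table held 1 linear probe set intensity per sample, and MAS5 is named, without a version, per the submitters' processing notes; no source used here gives the authors' background correction or scaling. Per the labels, the RNA was labelled by a whole-transcript protocol. Groups and replicate numbers came from the sample titles. Of 49395 rows, 102 control probe sets were left out. The platform annotation named 1 gene for 44988 of the other 49293 probe sets, several for 1832 and none for 2473; 44961 of the first matched RefSeq. Those naming several were used only in counts over all probe sets. Values were taken as log2(intensity + 1) and fitted with limma 3.58.1 in R 4.3.3 (lmFit, eBayes, no covariate) over all probe sets, over all genes by their brightest probe set, and over all within-gene differences, each with Benjamini-Hochberg adjustment. Intervals are 95% intervals of the fit. A two-sided exact permutation test of 3 against 3 cannot go below 0.1. The fits were tested on simulated data.

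The 9 genes and the lists were chosen with earlier results of these data known. The 7 pathway lists share some genes, which the total counts once. Named were all 34 probe sets and up to 4 called genes of each list by smallest p. The 3 genes nearest in profile to the largest rise and fall were also named. TGFB1, TGFB2, TGFB3, SMAD5, SMAD9, VIM, NES, GFAP, OLIG2, SOX2, PDGFRA, PTPRC, CD68 and CSF1R were named after their values were seen. The alternatives left out each sample or the probe sets under the 0.25 quantile, used a pseudocount of 32, quantile normalization or median centring, changed the fit (array weights, replicate block, robust variance trend) or took means over probe sets.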

Additional observations from a re-analysis of the deposited data

How the results depend on the processing

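Of 1254 values for 92 results under alternatives, 1123 kept their direction and side of the threshold, or passed in neither fit, 103 lost a call, 26 gained one and 2 reversed. The reversals came from averaging over probe sets, which gave SMAD2 as a gene -0.17 (adjusted p 0.032) and SMAD3 0.00 (adjusted p 0.98). Of the 1123, 46 changed sign without passing in either fit. After each group's mean was subtracted, same-numbered samples correlated at -0.076, -0.121 and 0.066, beside -0.059 to 0.133 for samples of different number. No pairing by number was seen, though 3 samples per group cannot exclude it. With the replicate block, 4 of the 34 probe sets rose and 4 fell. In that fit 14 pathway genes rose and 8 fell, and 0 within-gene shifts passed. As means over probe sets 1 of the 9 genes fell, and under a pseudocount of 32 or a variance trend 4 did. Without low probe sets, or under a pseudocount of 32, 6 within-gene shifts were upward, and under the pseudocount 1 was downward. Leaving out 1 sample gave 2 to 4 probe sets higher and 1 to 7 lower, 1 to 2 genes higher and 2 lower, 14 to 20 pathway genes higher and 8 to 11 lower, and 0 within-gene shifts in either direction. Without miR-NC sample 2 or 3, 1 gene was higher. BAMBI, the SMAD6 probe set 11730338_a_at and the SKIL probe set 11727181_a_at passed under all 13 alternatives. The cause of these changes was not tested. Detection calls and scanner files were not used here, and values already on one scale cannot show a change common to most transcripts.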

Other observations

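The probe sets were also split by the kind of record they were designed on. Of the 34, 7 were named for a curated RefSeq transcript; 1 of these rose, 4 fell and the median log2 fold change was -0.25, while of the other 27, 4 rose and 3 fell, with a median of 0.03. Over all genes with several probe sets the medians were -0.03 for 10712 probe sets on RefSeq transcripts, of which 641 rose and 1090 fell, and 0.00 for 27878 others, of which 2082 rose and 1947 fell. By type, 0 of the 8 probe sets with the suffix s_at rose and 3 fell, with a median of -0.13, against 491 higher and 733 lower and a median of -0.03 for all 6407 with that suffix. The splits share probe sets, among them those of SMAD3 (11718266_s_at) and SMAD4 (11725363_s_at) that fell. These splits were chosen after the values were seen, and the cause was not tested.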
